A study of Mus musculus with 8 samples.

Results

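Tuft cells are rare chemosensory cells of the gut epithelium, and 10 genes that tuft cells use to sense, signal and keep their identity were followed here through 8 mouse intestinal libraries. The genes were Pou2f3, Trpm5, Il25, Il17rb, Alox5, Alox5ap, Rgs13, Dclk1, Avil and Sh2d6. They were taken by symbol, with each symbol matching 1 of the 32285 genes in every library. Tuft cells detect luminal metabolites through a relay borrowed from taste cells, in which a G protein and a phospholipase release calcium and open the channel Trpm5. In the small intestine they release the cytokine Il25, which acts on innate lymphoid cells of the type 2 response, and those cells answer with Il13, which expands the tuft lineage. Leukotrienes, made by the enzyme Alox5 with its partner Alox5ap, are a further tuft cell output in that circuit.

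All libraries came from C57BL/6 mice. The labels of the tissue sorts name both plain C57BL/6 animals and Lgr5-eGFP-ires-CreERT2 animals on that background, in which a green reporter and an inducible Cre sit at the stem cell gene Lgr5. A library of small intestinal organoids grown alone (control) and a library of organoids grown in coculture, with a partner that the labels do not name, were both at passage 1. Each pooled 16 wells, from which 100000 epithelial cells were sorted. One library of sorted small intestinal cells and one of sorted large intestinal cells mixed live cells with added Lgr5-positive stem cells and with lymphatic endothelial cells chosen by CD31, PDPN and LYVE1. The share of a class in them is thus set by the sort as well as by the tissue. The other 4 libraries were Visium sections of 10 µm, 2 of small and 2 of large intestine, which were technical duplicates. With 1 library per condition no test between groups was possible. Values carry 95% intervals that cover counting error only, and do not cover differences between cells, animals or cultures.

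Filtering left 538 cells of the control organoids, 1028 of the cocultured organoids, 2695 of the small intestinal and 5882 of the large intestinal library, at median depths of 73663.5, 86295, 11810 and 21761 unique molecular identifiers (UMIs) per cell. The sections held 2094 to 2571 spots, at a median of 9039 and 10208.5 UMIs per spot in small intestine and 19329 and 19822 in large intestine. The small and the large intestinal cell library shared 25 barcodes, and the organoid libraries shared 0. Levels below are in CPM, a gene's share of all UMIs of the same cells or spots, scaled to 1000000. CPM is not corrected for gene length, so each gene is compared across cells and tissues and not with the other genes.

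All 10 genes are annotated as protein coding, and their positions are those of build GRCm38.p6 (mm10). Pou2f3 lies at chr9:43123927-43205755, Trpm5 at chr7:143071529-143094642, Il25 at chr14:54932695-54935837 and Il17rb at chr14:29996168-30008896. Alox5 lies at chr6:116410071-116461178, Alox5ap at chr5:149265004-149288153 and Rgs13 at chr1:144137386-144177372. Dclk1 lies at chr3:55242303-55539068, Avil at chr10:127000065-127020994 and Sh2d6 at chr6:72513641-72534206.

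Since the 10 genes were high in the same cells, their promoters were read for the 7-letter core ATGCAAA of the octamer that POU-family factors such as Pou2f3 bind, on both strands (TTTGCAT on the other). RefSeq promoters of GRCm38.p6, the 250 bases before a transcription start, were at hand for 7 of the 10 genes, at 8 starts. Only the Avil promoter held the letters, once on its own strand 15 bases before the start and once on the other strand 115 bases before it. Among all 32851 promoters in the table, 1355 (4.12%) held them on either strand. A match is a description of letters, not a binding site. The Avil window (chr10:127000459-127000708, plus strand, 42% GC) is shown with its matches in capitals. The Trpm5 window (chr7:143094643-143094892, minus strand, 52.8% GC) and the Il17rb window (chr14:30008897-30009146, minus strand, 72% GC), which hold none, are shown beside it as the gene of the sensing channel and the gene with the smallest gap between tuft-like cells and the next class below.
Avil: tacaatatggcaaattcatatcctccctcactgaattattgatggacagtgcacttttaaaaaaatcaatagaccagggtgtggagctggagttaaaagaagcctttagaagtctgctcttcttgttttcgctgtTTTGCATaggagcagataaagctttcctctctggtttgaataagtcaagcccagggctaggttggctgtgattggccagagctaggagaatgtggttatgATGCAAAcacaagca
Trpm5: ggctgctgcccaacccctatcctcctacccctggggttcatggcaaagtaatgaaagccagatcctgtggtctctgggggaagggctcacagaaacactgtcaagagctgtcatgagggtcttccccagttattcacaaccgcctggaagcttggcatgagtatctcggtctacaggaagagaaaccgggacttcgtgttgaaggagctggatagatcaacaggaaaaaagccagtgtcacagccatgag
Il17rb: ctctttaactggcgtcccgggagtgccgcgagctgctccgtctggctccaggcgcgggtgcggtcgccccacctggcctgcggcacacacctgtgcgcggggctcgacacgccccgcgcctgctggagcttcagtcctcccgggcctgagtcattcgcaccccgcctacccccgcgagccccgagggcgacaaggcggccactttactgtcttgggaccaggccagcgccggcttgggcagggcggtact

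Tuft-like cells were found without using the 10 genes. Cells were clustered with those genes left out, and a cluster took the tuft name from 12 other tuft genes (Gng13, Gfi1b, Bmx, Plcb2, Ptgs1, Gnat3, Matk, Hmx2, Lrmp, Ltc4s, Spib and Kctd12). All 12 of these markers met the naming rule in both tissues. In the small intestinal library 99 of 2695 cells were tuft-like (3.67%, exact binomial interval 3.0 to 4.45), with a median of 16150 UMIs. In the large intestinal library 79 of 5882 cells were (1.34%, 1.06 to 1.67), with a median of 15215 UMIs and a range from 899 to 41609. Every one of the small intestinal tuft-like cells carried UMIs of at least 6 of the 10 genes, with a median of 9, and 16 cells carried all 10. The large intestinal cells ranged from 1 to 10 with a median of 8, and 9 cells carried all 10. The 10 genes together gave 17294 UMIs in small intestinal tuft-like cells (10974 CPM) and 7733 in large intestinal ones (6455 CPM).

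All 10 genes were at their highest level in tuft-like cells in both tissues, among 17 small and 20 large intestinal classes of at least 20 cells. In the small intestine 9 of the 10 were at least 2-fold above the next class, where 2.53% of the 11682 genes tested had tuft-like cells so far ahead. For the large intestine the count was 8 of the 10, against 1.61% of 13125 genes. The exceptions were Il17rb in both tissues and Alox5ap in the large intestine. When the cells were grouped more finely, 76 of the 99 small intestinal cells fell into a cluster that took no name. The tuft-like share was then 0.853%, and none of the 10 genes was 2-fold ahead of the next class, against 0.138% of 11571 genes under that grouping.

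**Figure D1:**
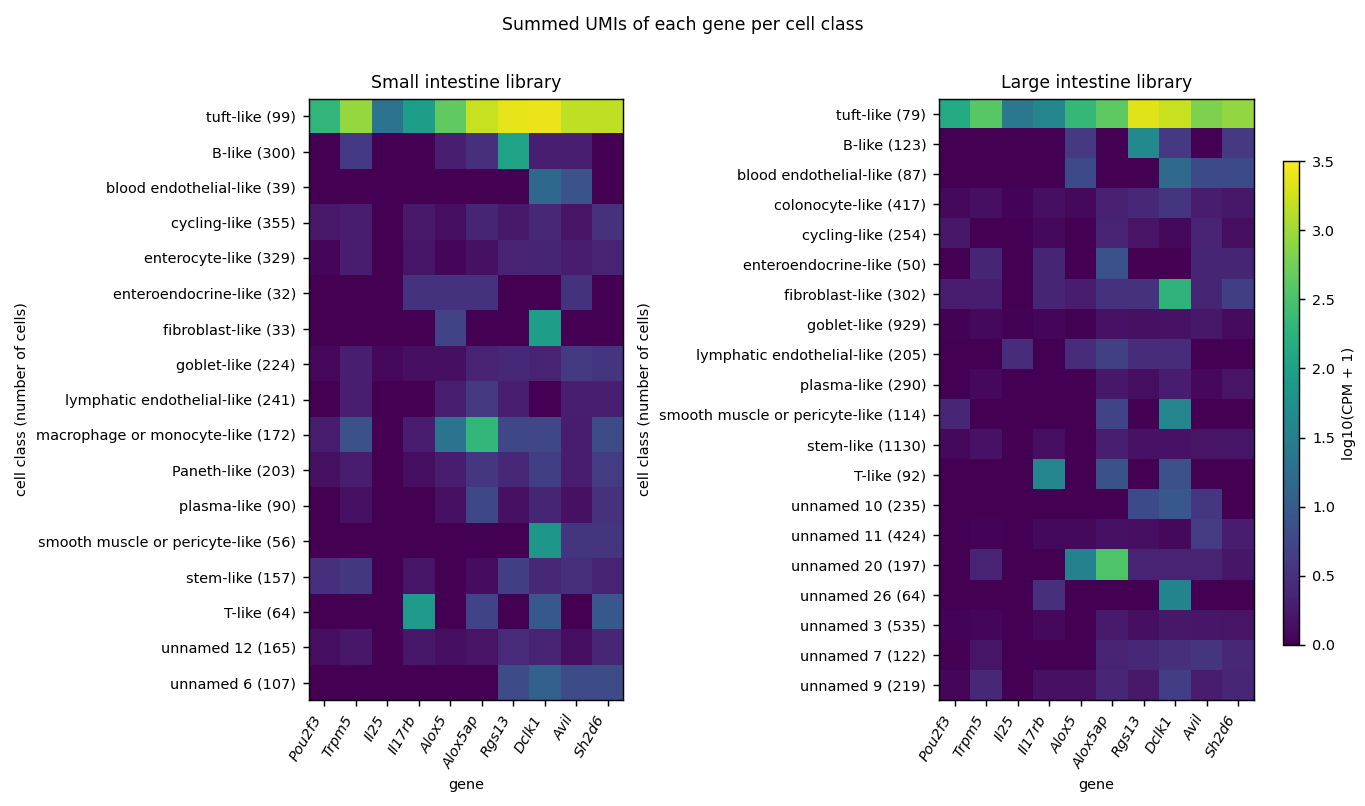
Level of each of the 10 genes (columns) in every cell class of at least 20 cells (rows, with the number of cells) in the small and the large intestinal library, on a color scale of log10(CPM + 1). The tuft-like row at the top is the highest for all 10 genes in both tissues, and Il17rb in T-like cells, Alox5ap in myeloid clusters, Dclk1 in fibroblast-like cells and Rgs13 in B-like cells stand out among the other rows.

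Pou2f3 encodes the POU-domain transcription factor that tuft cells need to form. It was at 201 CPM (317 UMIs, Poisson interval 179.6 to 224.6) in small intestinal and 137 CPM (164 UMIs, 116.7 to 159.5) in large intestinal tuft-like cells. The next class in the small intestine, stem-like cells, was at 2.05 CPM from 7 UMIs, which put tuft-like cells 6.62 log2 units higher. The next class of the large intestine rested on 1 UMI. Tuft-like cells carried 0 to 8 Pou2f3 UMIs each in the small intestine, with a median of 3, and 0 to 7 in the large intestine, with a median of 2.

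Trpm5, the calcium-gated cation channel of taste transduction, was at 876 CPM (1381 UMIs) in small intestinal and 385 CPM (461 UMIs) in large intestinal tuft-like cells. Every small intestinal tuft-like cell carried it, at 3 to 30 UMIs with a median of 13. Of the 79 large intestinal cells 9 had none, and the median was 5. The next classes were macrophage- or monocyte-like cells at 6.34 CPM in the small intestine, 7.11 log2 units below, and an unnamed cluster at 1.52 CPM in the large intestine, 7.98 below.

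Il25, the cytokine by which tuft cells call on type 2 lymphoid cells, was sparse. The small intestinal tuft-like cells held 32 of its UMIs (20.3 CPM, 13.9 to 28.7) and the large intestinal ones 29 (24.2 CPM, 16.2 to 34.8). It was seen in 27 of 99 and 21 of 79 cells, and no cell held more than 3 UMIs. Thinned to 2000 UMIs per cell, 3 of 99 and 0 of 74 cells carried it, too few to compare. Outside tuft-like cells no class of either tissue held more than 1 Il25 UMI.

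Il17rb, a subunit of the receptor for Il25, had the smallest gap between tuft-like cells and the next class in both tissues. They held it at 89.5 CPM in the small intestine (141 UMIs, 75.3 to 105.5) and 39.2 CPM in the large intestine (47 UMIs, 28.8 to 52.2). T-like cells followed at 74.0 CPM (18 UMIs, 43.8 to 116.9) and 39.0 CPM (12 UMIs, 20.1 to 68.0). The gap was 0.27 log2 units in the small intestine (-0.44 to 1.07) and 0.01 in the large intestine, so these neighbors did not differ beyond counting error. All further classes were at 2.27 CPM or below.

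The Il17rb of the T-like clusters sat in 5 of 64 small intestinal and 9 of 92 large intestinal cells. The cells with Il17rb had median depths of 4321 and 3131 UMIs, and the others 3176 and 3484, and the counts of cells that follow are not thinned. Genes to describe these cells were chosen after the values were seen. In the large intestine the T cell receptor gene Trac was found in 0 of the 9 Il17rb-positive cells and in 46 of the 83 others, and Cd3e in 1 of 9 and 48 of 83. Gata3, a transcription factor of type 2 lymphocytes, was found in 8 of 9 and 29 of 83, and Il1rl1, the receptor for Il33, in 7 of 9 and 15 of 83. The type 2 cytokine genes Il5 and Il13 were found in 3 and 2 of the 9 and in 4 and 1 of the 83. In the small intestine the numbers were smaller: Klrg1, a lymphocyte receptor, was found in 4 of 5 Il17rb-positive cells and 3 of 59 others, Gata3 in 3 of 5 and 21 of 59, and Cd3e in 2 of 5 and 42 of 59. Il1rl1 was found there in 0 of 5 and 2 of 59, Il5 in 1 of 5 and 0 of 59, and Il13 in none. Klrg1 in the large intestine was found in 3 of 9 and 12 of 83.

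Alox5 makes the first committed step of leukotriene synthesis, and Alox5ap presents arachidonic acid to it. Alox5 was at 439 CPM (692 UMIs) and 212 CPM (254 UMIs) in small and large intestinal tuft-like cells. Alox5ap was at 1621 CPM (2554 UMIs) and 426 CPM (510 UMIs). Myeloid clusters came next for both. In the small intestine macrophage- or monocyte-like cells held Alox5 at 20.8 CPM and Alox5ap at 207 CPM. A dendritic-like cluster of 16 cells led by Siglech and Dntt, too small to enter the comparison of classes, held Alox5ap at 825 CPM (96 UMIs), in all 16 cells. In the large intestine an unnamed cluster of 197 cells led by Mgl2, Folr2 and Clec4b1 held Alox5 at 33.7 CPM and Alox5ap at 347 CPM (556 UMIs), only 0.29 log2 units below tuft-like cells (0.12 to 0.47). That cluster held more Alox5ap UMIs than the tuft-like cells did.

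Alox5ap was not carried by all tuft-like cells alike. It was found in 98 of the 99 small intestinal cells, at 0 to 86 UMIs with a median of 22. Of the 79 large intestinal cells 30 had none, and the others reached 46 UMIs, with a median over all cells of 2. Thinned to 2000 UMIs per cell, 86.9% of the small and 43.2% of the large intestinal tuft-like cells carried Alox5ap, and 33.7% of the unnamed myeloid cluster did. Large intestinal colonocyte-like cells carried it in 0.00% after thinning and 0.959% before, at a median depth of 26821 UMIs.

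Rgs13 switches off G protein signals. It was at 2354 CPM (3710 UMIs) in small intestinal and 2109 CPM (2527 UMIs) in large intestinal tuft-like cells, where 97 of 99 and 77 of 79 cells carried it before thinning and 88.9% and 90.5% after. B-like cells followed at 104 CPM and 46.8 CPM. Most of the small intestinal B-like signal, 87 of 106 UMIs, came from 16 of the 18 cells of a cluster with Mef2b and Gcsam, genes of germinal center B cells, among its leading genes, at 407 CPM. The other 282 B-like cells held 19 UMIs (23.7 CPM). Only 3 of the 123 large intestinal B-like cells held a UMI, 17 in all.

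Dclk1, a microtubule-associated kinase widely used to mark tuft cells, was at 2460 CPM (3876 UMIs) in small intestinal tuft-like cells, with at least 4 UMIs in every cell. Large intestinal tuft-like cells held 1610 CPM (1929 UMIs), and 10 of the 79 had none. Fibroblast-like cells followed, at 91.6 CPM in the small intestine (22 UMIs) and 186 CPM in the large intestine (426 UMIs). Of the large intestinal fibroblast-like cells, 77 of 112 in one cluster and 100 of 190 in the other carried a Dclk1 UMI. After thinning, 31.0% of all large intestinal fibroblast-like cells carried it, at a median depth of 7627 UMIs, against 0.00% of colonocyte-like cells. Smooth muscle- or pericyte-like cells came next, at 69.8 and 38.6 CPM.

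Avil encodes advillin, an actin-binding protein of the villin family, and Sh2d6 an adaptor with an SH2 domain. Avil was at 1449 and 648 CPM in small and large intestinal tuft-like cells, and Sh2d6 at 1465 and 865 CPM. Their next classes rested on 1 or 2 UMIs in each tissue. All 99 small intestinal and 76 of the 79 large intestinal tuft-like cells carried Avil, and the same counts held for Sh2d6. Thinned to 2000 UMIs, 89.9% of the small and 67.6% of the large intestinal cells carried Avil, and 93.9% and 71.6% carried Sh2d6.

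**Figure D2:**
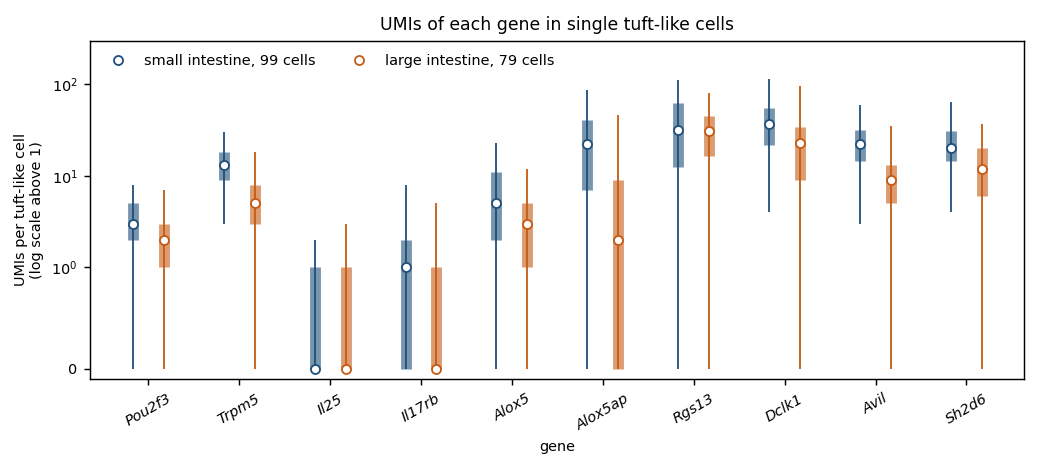
UMIs of each of the 10 genes per tuft-like cell in the 99 small and 79 large intestinal cells, with the range as a thin line, the interquartile range as a thick bar and the median as a circle, on an axis that is logarithmic above 1. Small intestinal medians lie above large intestinal ones for 9 of the 10 genes, Il25 has a median of 0 in both tissues, and Alox5ap has medians of 22 and 2.

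Counted over the kept cells, the tuft-like cells held 93.0 to 97.7% of the small intestinal UMIs of 8 of the genes. They held 86.6% of those of Alox5ap and 76.2% of those of Il17rb. Large intestinal tuft-like cells held 43.2% of Alox5ap, 51.1% of Il17rb, 76.6% of Dclk1 and 78.6% of Alox5, and 86.9 to 96.4% of the others. Cells with UMIs of at least 3 of the genes were also found among barcodes that had been removed. Of 187 such small intestinal barcodes 99 were the tuft-like cells, 73 were over the limit of mitochondrial UMIs and 6 had been removed by their doublet score. Of 141 in the large intestine 78 were tuft-like, 32 were over that limit and 15 had been removed by doublet score.

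The genes most like the 10 were found by the Pearson correlation of log2(CPM + 1) over 28 classes of both tissues, among 13062 genes. The classes share libraries, and the correlations are a description. The 8 genes closest to the mean of the 10 were Chat (r = 0.98), Hmx3 (0.97), Gfi1b (0.97), Itprid1 (0.97), Siglecf (0.96), Chil1 (0.96), Sh2d7 (0.96) and Rgs22 (0.96). Chat makes acetylcholine, and Hmx3 and Gfi1b are transcription factors. Single genes had their own neighbors. Rgs13 was closest to Spib (0.93), a transcription factor that B cells also use, Il17rb to the adaptor Fyb (0.88), and Dclk1 to the succinate receptor Sucnr1 (0.88). Gfi1b and Spib were among the markers that named the tuft-like cells.

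Further tuft pathway genes were taken from lists. Of the chemosensory relay (G protein subunits, phospholipase, calcium release channels and receptors), 6 of 7 genes with enough UMIs were at least 2-fold highest in tuft-like cells in the small intestine and 7 of 8 in the large intestine. For kinases, adaptors and cytoskeleton the counts were 8 of 10 in both tissues, and for transcription factors 5 of 7 and 4 of 7. They were 4 of 7 and 2 of 8 for eicosanoid and acetylcholine output, and 3 of 7 and 3 of 8 for immune surface and cytokine genes. Of the partners in the type 2 circuit, such as Il1rl1 and Gata3, 0 of 5 and 0 of 7 were. Several list genes were among the markers that named the tuft-like cells, 3 each in the relay, the transcription factors and the kinases and 2 in eicosanoid and acetylcholine output, so their place was largely fixed by the naming. These shares stand against 2.53% and 1.61% of all genes tested. Without the markers the counts in the small and large intestine were 3 of 4 and 4 of 5 for the relay, 5 of 7 and 5 of 7 for kinases, adaptors and cytoskeleton, 2 of 4 and 2 of 4 for transcription factors, and 3 of 5 and 1 of 6 for eicosanoid and acetylcholine output.

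Tuft-like cells of the small intestine held more of most of the 10 genes than those of the large intestine. Alox5ap was 1.93 log2 units higher (1.79 to 2.07), Il17rb 1.19 (0.70 to 1.70), Trpm5 1.19 (1.03 to 1.34), Avil 1.16 (1.04 to 1.28) and Alox5 1.05 (0.84 to 1.26). These 5 genes were past 2-fold, all higher in the small intestine, a direction in which 10.1% of 9652 genes were past 2-fold, with 8.53% in the other direction. The median over the 10 genes was 0.91, and that over all genes tested was 0.08. The summed level was 0.77 log2 units higher in the small intestine (0.73 to 0.80). With the finer grouping, which leaves 23 named cells in the small intestine, 1 gene, Alox5ap at 1.66, was past 2-fold. Under that grouping 9.09% of 8709 genes were past 2-fold in its direction, the sum was at 0.39 and Alox5 at -0.38.

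The other 5 genes lay within 2-fold. Sh2d6 was at 0.76, Dclk1 at 0.61 and Pou2f3 at 0.56 (0.28 to 0.84). Rgs13 was at 0.16 (0.09 to 0.23), and at -0.00 when mitochondrial and ribosomal protein genes were left out of the scaling, which shifts every gene by -0.16. Il25 was at -0.25 (-1.02 to 0.52), so its level did not differ beyond counting error. With 1 library per tissue, a difference between tissues cannot be told apart from one between animals, sorts or libraries.

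The pathway lists did not all point the same way between tissues. In the chemosensory relay the calcium release channels Itpr3 and Itpr2 were 2.01 and 1.54 log2 units higher in small intestinal tuft-like cells. Sucnr1 was 1.25 and the fatty acid receptor Ffar3 1.11 higher. Itpr3 was not highest in tuft-like cells in either tissue, with 90 and 17 UMIs in those of the small and large intestine. In the sections it was lower in small intestine, at -0.60. The G protein subunits of taste cells were higher in the large intestine. Gnat3 was at 57.1 CPM (90 UMIs) in the small and 365 CPM (437 UMIs) in the large intestine, a log2 ratio of -2.68 (-3.02 to -2.34), and Gnb3 at 5.08 (8 UMIs) and 79.3 CPM (95 UMIs), a ratio of -3.97 (-5.22 to -2.93). Gnat3 is one of the markers that named the cells.

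Over all genes 18.6% were past 2-fold in either direction, so a count of 0 in a short list is near the background. No gene of the eicosanoid and acetylcholine list was past 2-fold, with the phospholipase Pla2g4a highest at 0.81 and the cyclooxygenase Ptgs1 lowest at 0.11. None of the kinases, adaptors and cytoskeleton genes was, from Vav1 at 0.87 to Krt18 at 0.03. Among transcription factors Spib was (1.36), and Ascl2 was lowest at -0.03. Among immune surface and cytokine genes Tslp, an epithelial cytokine, was 2.27 higher in the small intestine (38 and 6 UMIs) and Siglecf 1.51, while Il13ra1 was lowest at -0.10. Crlf2, a subunit of the Tslp receptor, was the only tested gene of the type 2 partners, at 3 UMIs in the small and 31 in the large intestine (-3.76, -6.12 to -2.08). Il13, Il4, Il5, Il9, Il33, Il1rl1, Areg and Cysltr1 gave 0 UMIs in the tuft-like cells of both tissues.

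The tuft-like cells of the small intestine parted into a cluster of 76 and one of 23 when the cells were grouped more finely, a split taken up after it was seen. The 10 genes had no part in the clustering. The cluster of 76 was led by Siglecf, Vmn2r26 and Folr1 and kept no name under the naming rule, in which Siglecf is an eosinophil marker. All 10 genes were found in both. Alox5 was at 508 CPM in the larger and 162 CPM in the smaller cluster, a log2 ratio of 1.65 (1.23 to 2.09). Il17rb was at 99.9 and 47.8 CPM (1.06, 0.29 to 1.94). These were the only ones of the 10 past 2-fold, where 5.37% of 8518 genes were past 2-fold toward the larger cluster and the median over all genes was -0.11.

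Another 7 genes were higher in the larger cluster within 2-fold, from 0.32 for Dclk1 to 0.57 for Avil, with the interval of Il25 spanning 0. Pou2f3 went the other way, at 189 CPM in the larger and 252 CPM in the smaller cluster (-0.42, -0.79 to -0.03). Genes chosen after their values were seen show how the clusters differed. The leukocyte phosphatase gene Ptprc was at 254 and 25.5 CPM in the larger and smaller cluster. Sox4, a transcription factor of epithelial progenitors, was at 202 and 1000 CPM and Stmn1, a tubulin regulator of dividing cells, at 52.3 and 274 CPM. The stem cell gene Lgr5 was level, at 42.003 and 41.4 CPM. The clusters' median depths were 16538 and 15243 UMIs. The large intestinal tuft-like cells stayed in 1 cluster at the same setting.

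**Figure D3:**
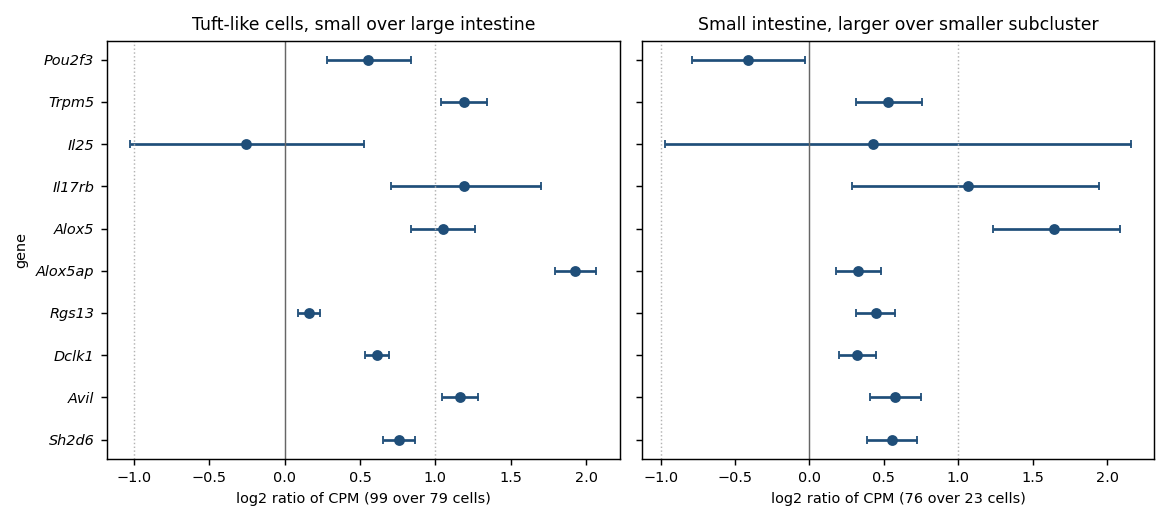
Log2 ratio of CPM for each of the 10 genes, in small over large intestinal tuft-like cells (left) and in the larger over the smaller cluster of small intestinal tuft-like cells (right), with exact counting intervals as bars, a line at 0 and dotted lines at 2-fold. Alox5ap, Il17rb, Trpm5, Avil and Alox5 lie past 2-fold on the left and Alox5 and Il17rb on the right, where Pou2f3 lies below 0.

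Organoids held very few cells with several of the genes. No organoid cluster took the tuft name, and 3 of 538 control and 4 of 1028 cocultured cells carried UMIs of at least 3 of the genes. Of these, 2 and 3 carried at least 5. With each cell thinned to 10000 UMIs, 1 of 450 control and 2 of 919 cocultured cells carried at least 3. The 12 tuft markers, which had no part in picking these cells, were met unevenly. The 3 control cells carried 8, 2 and 0 of them and the 4 cocultured cells 10, 4, 9 and 9. A control cell with 121532 UMIs, in the Paneth-like cluster, carried 8 of the genes with 128 UMIs and 8 of the 12 tuft markers. The control cell with 0 tuft markers had 163516 UMIs, of which 4 were Trpm5, 3 Avil and 1 Il17rb. The one with 2 tuft markers had 2225 UMIs and 7 UMIs of 5 genes. A cocultured cell with 49131 UMIs carried 9 of the genes with 157 UMIs, of which 105 were Rgs13. The cocultured cell with 4 tuft markers carried 3 genes, with 12 of its 17 UMIs from Pou2f3. Another with 4574 UMIs carried 6 genes with 63 UMIs, and one with 62077 UMIs carried 7 genes and 10 tuft markers.

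These cells made up nearly all of the organoid signal of some genes and little of that of others. All 33 control and all 57 cocultured UMIs of Dclk1 came from cells with at least 3 of the genes. So did all 17 control UMIs of Rgs13 and all but 1 of its 113 cocultured UMIs. Il25 gave 0 UMIs in control and 2 in cocultured organoids, both in one such cell, and Alox5 gave 1 UMI in each. By contrast, 181 of 189 control UMIs of Trpm5 and 29 of 32 of Il17rb lay outside these cells. Il17rb was spread thinly, with 32 UMIs in 28 control cells and 97 UMIs in 80 cocultured cells.

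Over all kept cells, the 10 genes gave 394 UMIs in control organoids (9.10 CPM) and 427 in cocultured organoids (4.40 CPM). The log2 ratio of coculture over control was -1.05 (-1.25 to -0.85). The 12 tuft markers went the other way, with 274 and 1034 UMIs (0.75, 0.56 to 0.95). Most of these, 201 and 626 UMIs, lay outside the cells that carried at least 3 of the genes. Without those cells the marker ratio was 0.48 (0.24 to 0.71). Trpm5 gave the largest part of the control sum. It was at 4.37 CPM in control (189 UMIs in 39 cells) and 0.413 CPM in coculture (40 UMIs in 12 cells), a ratio of -3.40 (-3.93 to -2.91). Thinned to 10000 UMIs per cell, Trpm5 was found in 13 of 450 cells without coculture (2.89%, 1.55 to 4.89) and in 7 of 919 with it (0.762%, 0.307 to 1.56). Without the cells that carried at least 3 of the genes, the summed ratio was -1.92 and that of Trpm5 -3.81. With CPM averaged over cells the summed ratio was 0.37, with the sign reversed, and 8 genes were past 2-fold, against 13.3% of all genes under the same averaging.

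In 8 of the genes the higher library held 10 UMIs or more. Of these, Trpm5, Alox5ap and Avil were past 2-fold lower in coculture and Rgs13 past 2-fold higher. Of 14501 genes, 8.65% were past 2-fold, 5.44% lower and 3.21% higher. Alox5ap was at -2.21 (31 and 15 UMIs in control and coculture), with 25 of its control UMIs in 1 cell, and 4 and 6 UMIs remained without the cells carrying at least 3 of the genes. Rgs13 was at 1.57 (17 and 113 UMIs), with 105 of its cocultured UMIs in 1 cell. Avil was at -1.51 (-2.09 to -0.94, 61 and 48 UMIs) and at -2.03 without those cells. Il17rb was at 0.44 (-0.15 to 1.06), Pou2f3 at 0.02, Dclk1 at -0.38 and Sh2d6 at -0.55, all with intervals that span 0.

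Most Trpm5 UMIs of control organoids lay in 2 clusters that were not tuft-like. An unnamed cluster led by Cnfn, Dynap, Ctse and Ly6d held 102 of the 189 UMIs, in 25 of 81 cells, and a cluster led by Paqr9, Cyp3a11, Lct and Apoc3 held 77, in 9 of 36 cells. The latter met 3 colonocyte markers, but Lct and Apoc3 are genes of small intestinal enterocytes, so it is given no name here. In coculture these clusters held 6 UMIs in 2 of 36 cells and 20 UMIs in 5 of 99 cells. Their levels were 16.8 and 30.2 CPM in control and 2.12 and 2.73 CPM in coculture, at median depths of 68654 and 68758.5 UMIs in control and 79557 and 76545 UMIs in coculture.

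**Figure D4:**
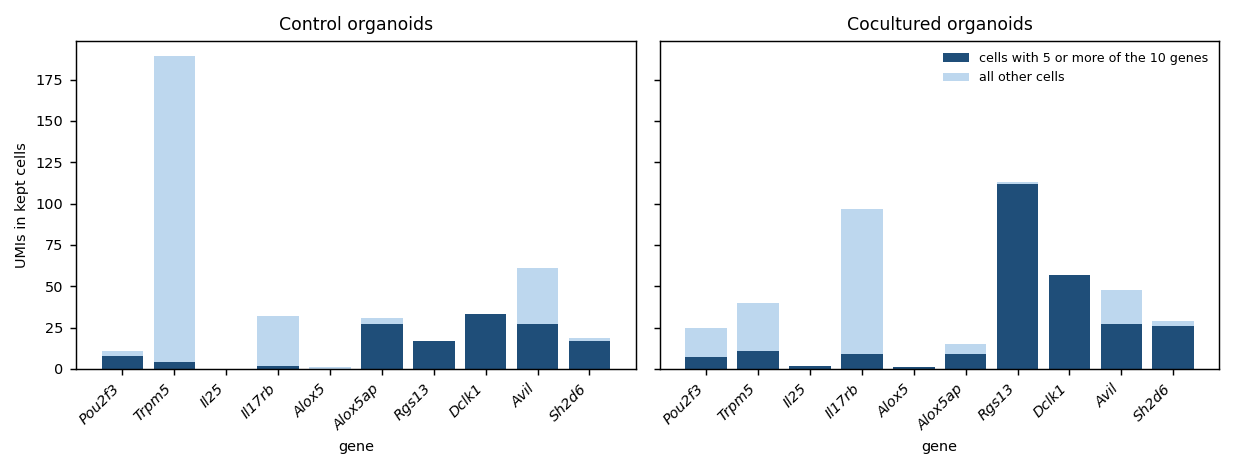
UMIs of each of the 10 genes in control and cocultured organoids, as bars from 0 split into cells that carry at least 5 of the genes (dark) and all other cells (light). Trpm5 in control (189 UMIs) and Il17rb in coculture (97 UMIs) lie mostly in other cells, while Dclk1 and Rgs13 lie in the few cells with many of the genes.

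In tissue sections, the genes were higher in small than in large intestine. With each spot thinned to 2000 UMIs, 20.6% and 18.4% of the small intestine spots and 6.33% and 7.48% of the large intestine spots held a UMI of any of the 10, and 0.436%, 0.536%, 0.0480% and 0.0462% held at least 3 of them. Before thinning 12.7%, 10.97%, 3.25% and 3.44% held at least 3, where small intestine spots had median depths of 10208.5 and 9039 UMIs and large intestine spots of 19329 and 19822 UMIs. A spot holds several cells, so fewer tuft cells and less RNA per tuft cell cannot be told apart. Summed over the 10 genes, the small intestine sections were at 122 and 110 CPM and the large intestine sections at 31.2 and 32.6 CPM, a 3.64-fold difference of the section means. Of the 10 genes, 9 were past 2-fold with the sections of the tissues not overlapping, all 9 higher in small intestine, where 16.2% of 17372 genes were, with 29.8% past 2-fold in either direction. The median over the 10 genes was 2.17 log2 units, and over all genes -0.01. The 12 tuft markers summed to 198 and 207 CPM in small and 98.9 and 100.0 CPM in large intestine, a log2 ratio of 1.03.

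Pou2f3 was at 6.24 and 4.05 CPM in the small intestine sections and at 0.582 and 0.456 CPM in the large intestine sections, a 9.92-fold difference. Rgs13 was at 22.6 and 18.2 CPM against 2.76 and 2.78 CPM (7.36-fold), Sh2d6 at 15.4 and 16.0 against 2.59 and 2.17 (6.58-fold), and Trpm5 at 18.5 and 17.9 against 2.79 and 2.76 (6.56-fold). Each gap was far wider than that between duplicates. Il25 gave 25 and 53 UMIs (1.03 and 1.76 CPM) in small intestine and 3 and 5 UMIs in the deeper large intestine sections.

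The other genes differed less. Alox5 was at 8.01 and 5.82 against 2.21 and 2.28 CPM (3.08-fold), Il17rb at 3.90 and 4.32 against 1.38 and 1.37 (2.99-fold), Dclk1 at 20.8 and 20.5 against 8.05 and 8.01 (2.57-fold) and Avil at 7.31 and 6.45 against 2.47 and 2.90 (2.56-fold). Alox5ap was within 2-fold, at 18.6 and 15.02 against 8.34 and 9.76 CPM (1.86-fold), without overlap.

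**Figure D5:**
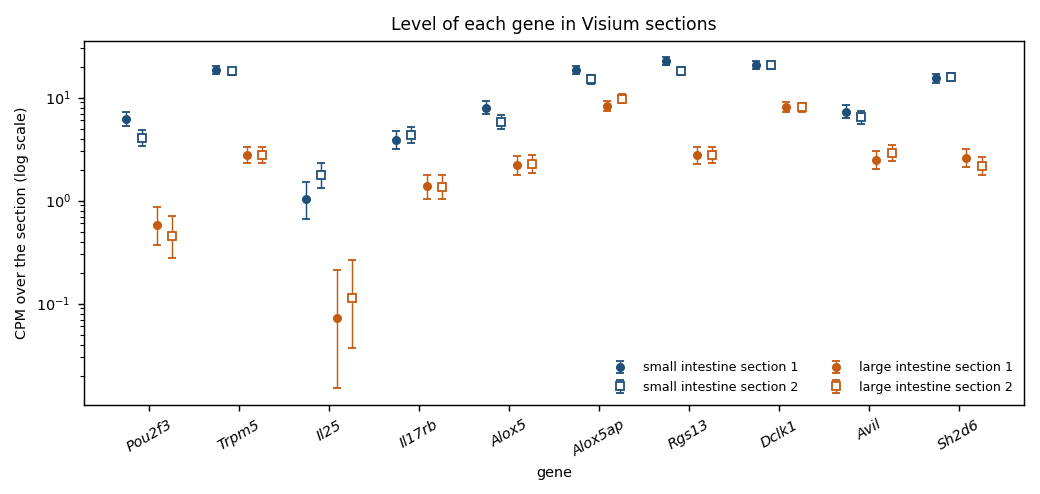
CPM of each of the 10 genes over each Visium section, with 1 point per section, exact Poisson intervals as bars and a logarithmic axis. Both small intestine points lie above both large intestine points for all 10 genes, with the narrowest gap for Alox5ap.

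The pathway lists are to be read against the 16.2% of all genes past 2-fold higher in small intestine sections. Among genes with enough UMIs the count was 5 of 9 for the chemosensory relay, 4 of 7 for transcription factors and 5 of 10 for kinases, adaptors and cytoskeleton. It was 3 of 8 for eicosanoid and acetylcholine output, 2 of 8 for immune surface and cytokine genes and 3 of 7 for type 2 partners. The list genes Pla2g4a, Alox15 and Ascl2 were past 2-fold higher in large intestine, at log2 ratios of -1.24, -1.84 and -1.49. In that direction 13.6% of all genes were past 2-fold. Sucnr1 gave 135 and 187 UMIs in small intestine and 1 and 0 in large intestine. Among the type 2 partners Il1rl1 was 15.9-fold higher in small intestine, at 41.2 and 67.9 against 3.27 and 3.58 CPM. The cell libraries did not show this. Il1rl1 gave 13 of 52182323 kept UMIs there in small and 79 of 123827909 in large intestine, with 3 and 40 in T-like cells. Which cells gave the section signal was not tested. Gata3 was 3.72-fold higher in small intestine sections. Il13 gave 17 and 23 UMIs in small and 2 and 2 in large intestine.

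Within small intestine sections the genes did not all follow the same regions, as read from spot clusters named by their leading genes. The summed level was lowest in the spots led by Opcml, Scube2 and Carmn, at 60.6 and 63.2 CPM in sections 1 and 2, and those led by Gsdmc3 and Gsdmc2 were at 169 and 146 CPM, the highest in section 1. In section 2 the few spots led by Zfp804a, Synpr and Calca were higher, at 155 CPM from 124 UMIs, most of them Dclk1 and Avil. Pou2f3 was at 10.4 and 7.0 CPM and Alox5 at 14.1 and 11.03 CPM in the Gsdmc3-led spots. In the spots led by Slc28a2, Ada and Apoa4, of which Apoa4 is a lipid transport gene of villus enterocytes, they were lower, at 4.85 and 3.75 CPM for Pou2f3 and 5.27 and 4.53 CPM for Alox5.

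Il25 had the opposite order. The Apoa4 group of spots held 17 of the 25 Il25 UMIs of section 1 and 30 of the 53 of section 2 (3.58 and 4.69 CPM), and the Gsdmc3-led spots held 1 and 5 (0.22 and 1.06 CPM). Sh2d6 was also at its highest in the Apoa4 group, at 23.6 and 25.8 CPM, against 18.05 and 19.5 CPM in the Gsdmc3-led spots. In the spots led by Paneth defensin genes, Pou2f3 was at 9.07 and 6.95 CPM and Il25 gave 1 and 0 UMIs.

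Dclk1 and Avil were high in one region where Rgs13 and Trpm5 were low. In the 26 and 46 spots led by Zfp804a, Synpr, Calca and Nmu, among them genes of enteric neurons, Dclk1 was at 53.4 and 103 CPM (18 and 82 UMIs) and Avil at 41.5 and 32.6 CPM (14 and 26 UMIs). The same spots held 0 and 1 UMIs of Rgs13 and 1 and 3 of Trpm5. Pou2f3 gave 0 UMIs in them, which allows up to 10.9 and 4.62 CPM by the exact interval, above its level over the whole sections. Alox5ap was at 26.7 and 7.52 CPM there (9 and 6 UMIs), above its level over the whole section in section 1 and below it in section 2. In the large intestine the spots led by Bglap, Cnr1, Cartpt and Vip, a gut neuropeptide gene, had Dclk1 at 20.2 and 19.1 CPM and Avil at 5.38 and 7.99 CPM, the highest of the large intestine regions for both genes. Rgs13 was at 0.672 and 2.53 CPM there.

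Large intestine regions differed for the other genes as well. Rgs13, Trpm5 and Sh2d6 were highest in the spots led by Retnlb, Dlk1 and Itln1 or in those led by Bmp8b, Mal and Alpi. Rgs13 was at 7.45 and 11.1 CPM in the former, against 1.43 and 0.803 CPM in the spots led by Clca4b and Atp12a. Alox5ap was highest in the spots led by Mmrn1, Ccl21a and Lyve1, which are lymphatic endothelial genes, at 20.8 and 24.7 CPM, where Rgs13 gave 1 and 2 UMIs.

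Spots with a tuft marker also held more of the 10 genes in the small intestine. The marker sum did not follow the 10 genes over the regions there, as given above. Kctd12 alone gave 2016 of its 4833 UMIs in section 1 and 2776 of 6215 in section 2. A spot with a marker UMI thus need not hold a tuft cell. With every spot thinned to 2000 UMIs, the summed level in spots with a UMI of any of the 12 markers over spots without was 0.66 log2 units in section 1 (0.40 to 0.91) and 0.99 in section 2 (0.74 to 1.24). For the large intestine sections it was 0.59 (0.01 to 1.13) and 0.44 (-0.10 to 0.96), so section 2 gave no difference beyond counting error. Split by crypt genes such as Lgr5 and Olfm4, the ratios were -0.15 and -0.03 in small and 0.30 and 0.14 in large intestine, with all 4 intervals spanning 0.

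Split by neuron and glia genes, the summed ratios were -0.23 and -0.27 in small intestine, with intervals that span 0. In large intestine section 1 the ratio was 1.42 (0.76 to 2.03) and in section 2 it was 0.69 (-0.06 to 1.37). Dclk1 made up much of it, at 2.41 from 12 and 26 UMIs in spots with and without those genes in section 1, and 2.04 from 12 and 36 UMIs in section 2. In the small intestine Dclk1 was at 0.84 (-0.18 to 1.74) and -0.05 (-1.01 to 0.81), so the split gave no difference beyond counting error there.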

How the data were processed

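Single-cell and Visium RNA libraries were analysed from the UMI counts deposited by the authors, made with Cell Ranger 6.0.1 and Space Ranger 1.2.1 per the file headers, on mm10 per the submitters' processing notes. The annotation release is not given in the sources used here, nor is the coculture partner. The matrices listed called cells or spots and carried no normalization.

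The following was computed here with Python 3.11.15, scanpy 1.11.5, igraph 0.11.9 and scipy 1.17.1. Barcodes under 500 genes or over 20% mitochondrial UMIs were dropped, as were spots under 500 UMIs and, at 0.8% per 1000 cells, those with the highest doublet scores. Scores came from Scrublet, whose own threshold was not used. Counts scaled to 10000 per cell and log-transformed gave 2000 variable genes, 30 components, 15 neighbors and Leiden clusters at resolution 1 (0.5 for spots), with the 10 genes left out. Each tissue library was clustered alone, and organoids and the spots of each tissue together. Clusters were named from 24 marker lists: at least 3 markers had to be found in 10% of cells and be 1 log2 unit higher than in other cells. A cluster whose 10 leading genes favored another class, or that was shallow with none of its markers among them, kept no name. Spot clusters were named by leading genes only.

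Intervals are 95%, exact Poisson for CPM, Clopper-Pearson for shares and exact for ratios of 2 counts. Ratios used 3 in place of counts below 3. "Past 2-fold" needs 10 UMIs in the higher group. For shares of cells or spots with a UMI, intestinal cells and spots were thinned to 2000 UMIs and organoid cells to 10000. Counts of cells given without the word thinned are at full depth. The interval calculation was checked on simulated Poisson counts. These lack the spread between cells of the real counts, so the check does not show how well the intervals hold for these data. No p-value was computed, since each condition had 1 library and the sections were technical duplicates.

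All 10 genes are named. From a pathway list the genes with the highest or lowest ratio are named, and for likeness the 8 genes closest to the mean of the 10 and up to 2 per gene. The genes and lists were chosen with earlier results of these data known. Alternatives were another cell filter, doublet handling, resolution, number of variable genes, scaling, count floor, thinning and left-out sections or cells. Positions of spots on the slide were not used. Some results on further genes are not reported here.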

Additional observations from a re-analysis of the deposited data

How the results depend on the processing

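Over 68 results, 408 alternatives were run, and 334 left the value unmoved. A level, share or ratio was unmoved within its counting or section error, and a count of genes within a fixed fold of its main value. No paired analysis was possible because the results come from no test and the sections are technical duplicates that share only a number. The finer clustering at resolution 2 moved the most, since 76 of the 99 small intestinal tuft-like cells then fell into the Siglecf-led cluster without a name. The tuft-like share of the small intestine was then 0.853%, 0 of the genes were 2-fold ahead of the next class there (0.138% of all genes), 1 was past 2-fold between tissues (9.09% of all genes in its direction), the summed small over large ratio was 0.39, Alox5 was at -0.38 and Rgs13 at -0.20. The loose cell filter gave a share of 2.64% and a summed ratio of 0.85, the strict filter 0.83, kept doublets 0.95, CPM averaged over cells 0.70 and scaling without mitochondrial and ribosomal protein genes 0.60, with Rgs13 then at -0.00276. In organoids, CPM averaged over cells gave a summed ratio of 0.37 with 8 genes past 2-fold (13.3% of all genes), and leaving out the cells with at least 3 of the genes, chosen after seeing the data, gave -1.92 with 2 genes, against 8.48% of all genes. In sections the summed ratio was 1.72 without mitochondrial and ribosomal protein genes in the scaling, which shifts the median of all genes by -0.15, and 1.70 with CPM averaged over spots. Leaving out each section in turn moved none of the section results. The error of a section ratio came from the spread of the same duplicates. A ratio could thus hardly leave it, and this says little about how firm the ratios are. For spots with a tuft marker, large intestine section 2 was at -0.52 when thinned to 1000 UMIs, and small intestine section 1 at 1.05 when thinned to 5000. Marking spots by 2 UMIs gave 1.26 and 1.39 in small intestine and 1.205 in large intestine section 1. The causes of the moves other than that at resolution 2 were not tested. The plasma cell list gave no value in large intestine, where 1 and 2 spots were without it. Depth limits Il25, at 32 and 29 UMIs in tuft-like cells. The organoid values rest on few cells and 1 library per condition.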

Other observations

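Among single tuft-like cells the 10 genes were only loosely ordered together. Over the 45 pairs of genes, the rank correlation of CPM across cells had a median of 0.09 in the small intestine (-0.32 to 0.46) and 0.21 in the large intestine (-0.05 to 0.64). It was over 0.4 for 3 pairs in the small and 11 in the large intestine, and for 2 pairs in both. Cells share a library and UMIs per gene are few, so these values are a description. CPM of Trpm5 and Sh2d6 ranked lower in cells with more UMIs in both tissues (-0.35 and -0.24 for Trpm5, -0.32 and -0.24 for Sh2d6), and the value for Alox5ap was 0.36 in the small and 0.03 in the large intestine. Sox4 was picked after its values were seen, and its rank correlation with Alox5 was -0.57 in the small and -0.38 in the large intestine.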
